A study of Rattus norvegicus with 11 samples.

Results

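Of the 32623 genes counted in rat spinal cord, 80 rose in 2 steps, from naive rats to paclitaxel-treated rats with an idle electrode, and from those to paclitaxel-treated rats that received spinal cord stimulation. The 80 genes were chosen by their measured values in the same 11 libraries that are described here. A gene was taken when its mean level over the 11 libraries was at least 1 CPM (counts scaled to 1000000 per library), when its lowest sham library lay above its highest naive library, when its lowest stimulated library lay above its highest sham library, and when the mean of log2(CPM + 0.5) was higher by at least 1 in stimulated than in naive libraries. The order of the groups, the lack of overlap and a rise of at least 2-fold are therefore properties of the choice and not findings. Fold changes on this scale understate the change of genes with low counts.

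The libraries came from the ipsilateral spinal cord of adult male rats weighing 350 to 400 g. The naive group (3 libraries) was given no paclitaxel and no electrode. The sham group, labelled PTX+Sham SCS (5 libraries), received intraperitoneal paclitaxel (1.5 mg/kg on each of days 1, 3, 5 and 7) and an electrode that was not used. The stimulated group, labelled PTX+SCS (3 libraries), received the same drug and electrode together with daily constant-current stimulation at 50 Hz with 0.2 ms pulses, at 80% of the value abbreviated MoT in the labels. Groups follow the group label of each sample. Sample titles begin with S in the stimulated group and with X in the sham group, and since S could abbreviate either name, which step is stimulation rests on the group label. Each library carries the number in its sample title: 1 to 3 for naive, 1 to 5 for sham, and 1, 2 and 5 for the stimulated group (SCS 1, SCS 2, SCS 5). The sources used here state neither strain nor age, and no group analysed here had the drug without the electrode, or the electrode or stimulation without the drug.

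Paclitaxel stabilises microtubules, and as a cancer drug it often causes a painful neuropathy of sensory nerves. The central branches of these nerves end in the dorsal horn of the spinal cord, where neurons, astrocytes and microglia shape the signal that is passed to the brain. Spinal cord stimulation drives the large fibres of the dorsal columns with an implanted electrode and is used against chronic pain. The deposited table identifies genes by Ensembl ID and does not pair them with names, and 0 of its IDs could be matched to a symbol in the gene table used here. The 80 genes can for that reason not be assigned to pathways or cell types, their promoters could not be looked up, and the spinal cord label was not checked against marker genes. In bulk tissue a larger number of cells of a type and more RNA per cell cannot be told apart.

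Total counts ran from 17401720 to 56775931 in naive, from 11243288 to 22144967 in sham and from 18633243 to 29395233 in stimulated libraries, so the sham libraries were the shallowest on average. Libraries of the same group differed by more than counting noise, with a chi-square statistic of 4.98 to 27.8 per degree of freedom. Nothing in the labels says that each library came from a separate rat.

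The choice began from 14467 genes with a mean of at least 1 CPM. In 507 of them (3.5%) every sham library lay above every naive library, and in 1043 (7.21%) every stimulated library lay above every sham library. Both gaps were found in 143 genes, of which 63 had a rise under 1 and 80 had a rise of at least 1. Looked at from the rise alone, 539 genes rose by at least 1 from naive to stimulated libraries. Of these 80 showed both gaps, 72 the gap between naive and sham only, 212 the gap between sham and stimulated only, and 175 neither. The mirror image of the rule, with every sham library below every naive library and every stimulated library below every sham library, was met by 33 genes, and 0 of them fell by 1 or more.

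Several members stood close to a threshold. The members with the smallest rise had 1.01 and 1.05, and the nearest genes that missed it had 0.997 and 0.983. The lowest mean levels among members were 1.12 and 1.998 CPM, and the only gene that missed through its level alone had 0.893 CPM. The narrowest first gaps, between the highest naive and the lowest sham library, were 0.0056 and 0.0061 on the log2 scale, and the nearest genes that missed had gaps of -0.00255 and -0.00619, that is, an overlap. The narrowest second gaps, between the highest sham and the lowest stimulated library, were 0.0047 and 0.011, and the nearest genes that missed had gaps of -0.00260 and -0.00460.

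The gaps were narrow beside the depth of the libraries. The first gap had a median of 0.087 and a highest value of 0.62, and it was under 0.05 in 26 of the 80 genes. The second gap was wider, with a median of 0.24 and a highest value of 2.24, and it exceeded the first in 59 genes. A 95% Poisson interval, which covers counting error only, was taken for each count. Across the first gap the intervals of all libraries on either side stayed apart in 5 genes, across the second in 33 and across both in 3. Separation of all intervals asks more than a gap wider than its counting error. When every library was thinned at random to 11243288 counts, an alternative chosen after the data were seen, 63 genes met the rule and 48 of the 80 were among them. The counts themselves were seldom small: 79 of the 80 genes had at least 10 counts in every library, and the lowest was 4.

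The rule asks how the number of members compares with other ways of naming the libraries. There are 9240 ways to give the 3 group names to the 11 libraries with the same group sizes, and each gene can meet the rule under at most 1 of them. The true names gave 80 genes. The other assignments gave 67 genes at most, and the next in order gave 55 and 51. These 3 differed from the true one by exchanging sham 2 with a naive library, so that sham 2 stood among the low libraries. Of all assignments, 8777 gave 0 genes, 14 gave 10 or more, and the mean was 0.108. With the naive and stimulated names exchanged 0 genes met the rule. Without a minimum rise the true names gave 143 genes and the best of the others 124. The count ranks first, but genes that vary together are not independent, and assignments that share most libraries with the true one share its genes' pattern.

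**Figure D1:**
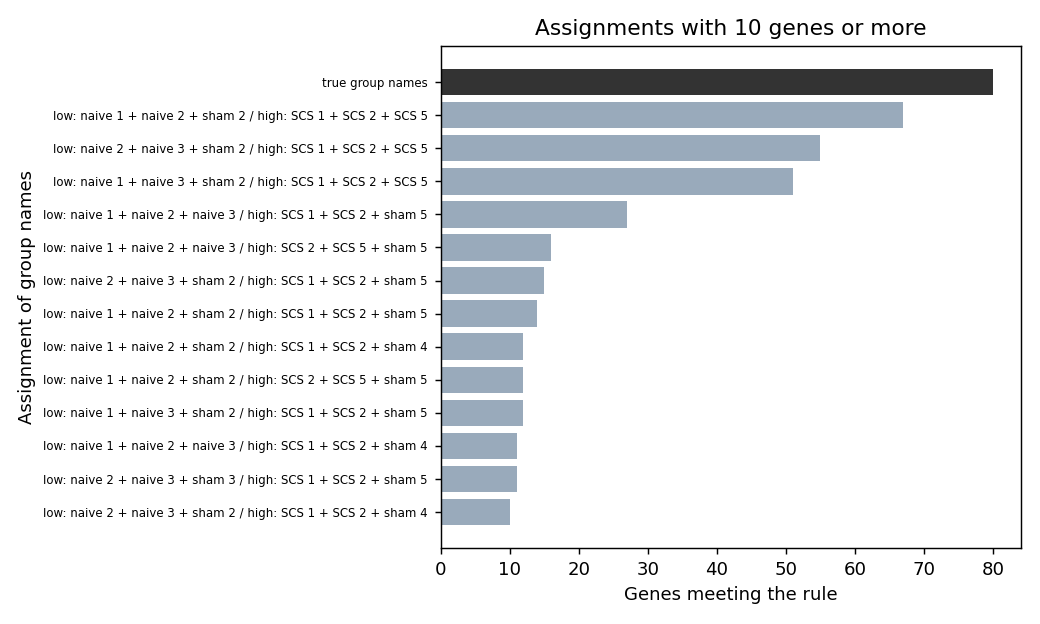
Number of genes that met the rule (horizontal axis) under each assignment of the group names that gave 10 genes or more (vertical axis, 14 assignments of 9240), with the libraries taken as low and as high written beside each bar. The true names, the dark bar, gave 80 genes, and the next 3, which place sham 2 among the low libraries, gave 67, 55 and 51.

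Within the members the second step was usually the larger. Both steps are made of values that the rule used, so their sizes describe the chosen genes only. From naive to sham libraries the mean log2 level rose by a median of 0.62 over the 80 genes (range 0.29 to 1.99), and from sham to stimulated libraries by a median of 0.94 (range 0.44 to 4.04). These correspond to 1.53-fold and 1.91-fold. The second step was larger in 71 genes and the first in 9. The first step made up a median of 39.1% of the whole rise, with an interquartile range of 33.5% to 46.5%. At the extremes it made up 23.4%, in a gene with steps of 0.29 and 0.96, and 66.6%, in a gene with steps of 0.91 and 0.46. In the 63 genes with both gaps and a rise under 1 the median share was much the same, 39.4%. Only 7 genes rose by 1 or more in the first step, 28 did so in the second, and 5 did so in both.

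**Figure D2:**
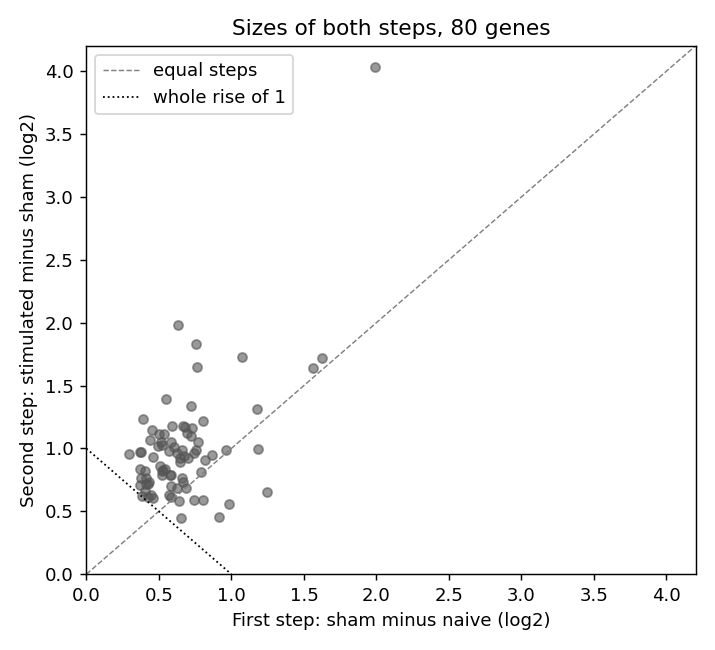
First step (sham minus naive mean, horizontal) against second step (stimulated minus sham mean, vertical), both in log2(CPM + 0.5), with 1 point for each of the 80 genes. The dashed line marks equal steps and the dotted line a whole rise of 1, below which no gene was taken; 71 points lie above the dashed line, and a single point stands far from the rest at 1.99 and 4.04.

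The whole rise was moderate in most members. Its median was 1.54 on the log2 scale, or 2.91-fold, with an interquartile range of 1.32 to 1.81. A rise of 2 or more was seen in 11 genes and of 3 or more in 3. Most members were of medium or low abundance. Their mean level had a median of 16.5 CPM, against 24.4 CPM over the 14467 genes, with 53 genes at 10 CPM or more and 6 at 100 CPM or more. The 63 genes with both gaps and a smaller rise had higher levels, with a median of 55.6 CPM.

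The gene with the largest rise was ENSRNOG00000013973. Its level was 2.47, 1.64 and 1.78 CPM in naive 1 to 3. In sham 1 to 5 it was 6.59, 3.52, 7.41, 18.2 and 19.9 CPM. In SCS 1, SCS 2 and SCS 5 it was 96.0, 169.6 and 246 CPM. The sham libraries fell into a lower set of 3 and a higher pair, and the lowest stimulated library was well clear of both. Group means were 1.96 ± 0.44 CPM (SD, n = 3), 11.1 ± 7.4 CPM (SD, n = 5) and 170.4 ± 74.8 CPM (SD, n = 3). The edgeR fit gave log2 fold changes of 2.54 ± 0.71 (SE) for sham against naive and 3.94 ± 0.50 (SE) for stimulated against sham. The counting intervals of its libraries stayed apart across its second gap and not across its first. Its stimulated libraries were ordered differently from those of most members, since SCS 5 was the highest here.

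The gene with the next largest rise was ENSRNOG00000000187. It stood at 5.92, 3.94 and 5.90 CPM in naive 1 to 3. Sham 1 to 5 held 14.8, 6.98, 19.2, 30.1 and 23.2 CPM, and SCS 1, SCS 2 and SCS 5 held 78.1, 58.2 and 40.9 CPM. Sham 2 was close to the naive libraries, and SCS 1 was the highest of all. Group means were 5.25 ± 1.14 CPM (SD, n = 3), 18.9 ± 8.7 CPM (SD, n = 5) and 59.1 ± 18.6 CPM (SD, n = 3). The steps were nearly equal in this gene, at 1.62 and 1.72, and the edgeR fit gave log2 fold changes of 1.82 ± 0.46 (SE) and 1.65 ± 0.38 (SE). In that fit the gene had adjusted p-values of 0.37 and 0.054, so neither step was called at 0.05.

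**Figure D3:**
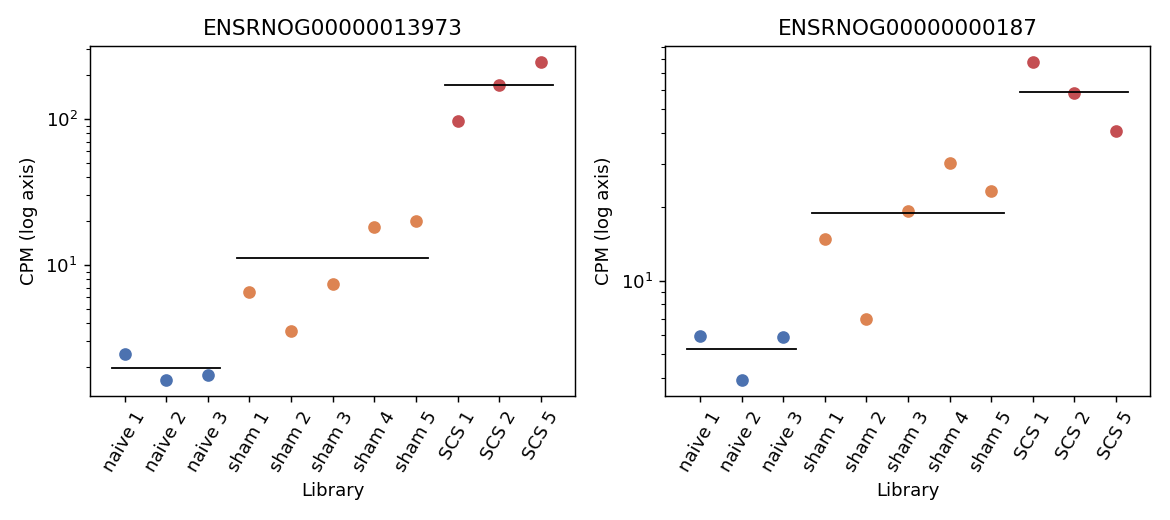
Level in CPM (vertical, log axis) of the genes with the largest and next largest rise in each of the 11 libraries (horizontal), with points coloured by group and a line at each group mean. ENSRNOG00000013973 ran from 1.64 CPM in naive 2 to 246 CPM in SCS 5, and ENSRNOG00000000187 from 3.94 CPM in naive 2 to 78.1 CPM in SCS 1.

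Another gene also rose by over 3, by 3.20, in nearly equal steps of 1.56 and 1.64. The most abundant member rose by a typical amount, 1.63. It held 2072, 2033 and 2146 CPM in naive 1 to 3, and 3240, 2266, 3209, 4524 and 4229 CPM in sham 1 to 5. In SCS 1, SCS 2 and SCS 5 it held 5481, 8832 and 5563 CPM. The naive libraries of this gene lay close together, while sham and stimulated libraries each spread widely, and sham 2 stood nearest to the naive ones.

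That spread was common to the members. The SD of the log2 level between sham libraries had a median of 0.31 over the 80 genes, against 0.13 over the 14467 genes. Between stimulated libraries it was 0.32 against 0.13, and between naive libraries 0.098 against 0.080. The members thus differed between libraries of the same group by more than most genes did, in the sham and stimulated groups above all. The rule used these same values, and the cause of the spread was not tested.

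The libraries of a group also kept much the same order from member to member. Relative to the naive mean of each gene, the median over the 80 genes was 0.20 in sham 2, 0.51 in sham 1, 0.59 in sham 3, 0.75 in sham 4 and 0.92 in sham 5. It was 1.22 in SCS 5, 1.51 in SCS 1 and 1.81 in SCS 2. The naive libraries were at -0.011, -0.024 and 0.052. Taken as a share of each gene's own whole rise, the median over the genes ran from 13.4% in sham 2 to 60.7% in sham 5.

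Sham 2 was the lowest sham library in 67 of the 80 genes (83.8%), against 17.7% of the 14467 genes. Sham 5 was the highest in 50 (62.5%), against 27.4%. Among stimulated libraries SCS 2 was the highest in 64 (80.0%, against 36.0%) and SCS 5 the lowest in 64 (80.0%, against 27.6%). Naive 3, the deepest library, was the highest naive library in 45 (56.3%, against 33.4%). The total counts of sham 1 to 5 were 22144967, 15895327, 14033471, 11243288 and 19570408. Whether depth bears on the order of the libraries was not tested.

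**Figure D4:**
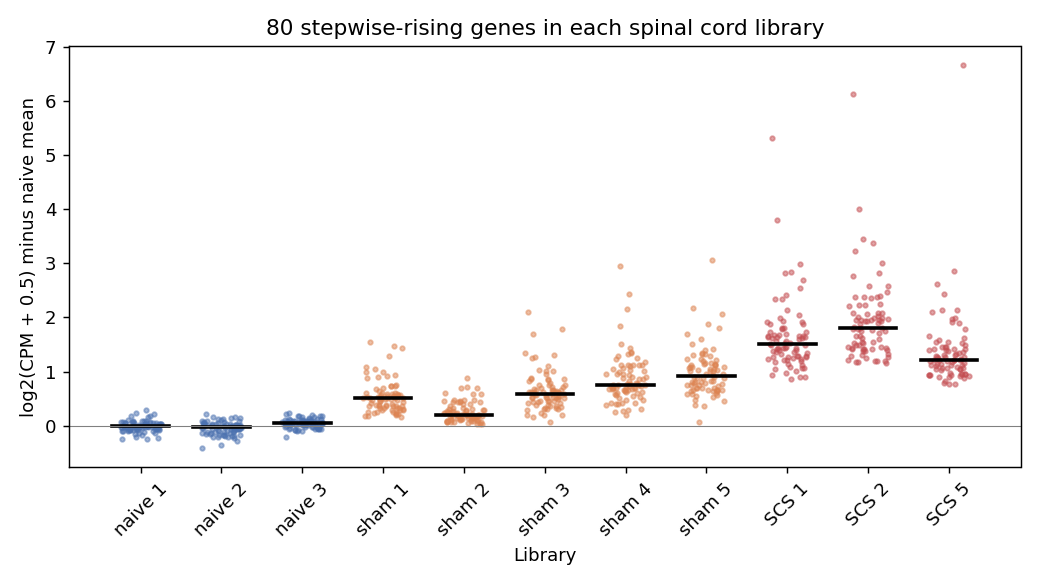
Level of the 80 genes in each library (horizontal), as log2(CPM + 0.5) minus the gene's naive mean (vertical), with 1 point per gene and a line at the median. The medians rise from 0.20 in sham 2 to 0.92 in sham 5 and from 1.22 in SCS 5 to 1.81 in SCS 2, with naive medians between -0.024 and 0.052.

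Taking the group means out of each gene, the remaining deviations of 2 members over the 11 libraries had a median Pearson r of 0.67 over 3160 pairs, and 96.8% of the pairs were positive. Over all pairs of the 14467 genes the median was 0.02, with 52.1% positive. The points are the same 11 libraries in every pair, so this is a description of how members vary together in them. The remaining 14387 genes ordered the libraries in much the same way. Along their first principal component, with 43.3% of the variance, sham 2 stood at -16.5, sham 3 at -6.66, sham 1 at -6.40, sham 4 at 0.96 and sham 5 at 12.2. Naive libraries lay between -22.0 and -18.3, and SCS 5, SCS 1 and SCS 2 stood at 15.0, 21.6 and 41.1. The order differed from that of the members only in the places of sham 1 and sham 3. What sets the libraries apart along this component was not tested.

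A library that takes no part in the choice gives a value that the rule did not use, although the libraries it is set against did take part. The genes in which it lay in place were nearly all among the 80 members. For each sham library left out they are the 80 members themselves, so the share reflects only how many genes the choice took without it. The shares below therefore describe the choice and support nothing. Without SCS 2 the rule took 75 genes, and in 74 of them (98.7%) SCS 2 lay above every sham library, as it did in 27.5% of all genes. Without SCS 1 it took 94, and SCS 1 lay above every sham library in 80 (85.1%, against 20.4%). Without SCS 5 it took 117, with SCS 5 in place in 85 (72.6%, against 19.9%). In the chosen genes the other stimulated libraries already lay above every sham library by the rule. All genes were held to no such condition, so the shares are not like for like.

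Naive 1, naive 2 and naive 3 lay below every sham library in 76.7% of 103, 79.4% of 102 and 70.9% of 117 genes chosen without them, against 19.0%, 14.5% and 8.73% of all genes. Sham 1, sham 3, sham 4 and sham 5 lay between the naive and stimulated libraries in 90.9% of 88, 93.0% of 86, 86.0% of 93 and 77.7% of 103 genes, against 6.73% to 8.25% of all genes. Sham 5 missed its place upwards, reaching the stimulated libraries in 23 genes.

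Sham 2 was the exception. Without it the rule took 206 genes in place of 80. In 80 of these (38.8%, against 5.39% of all genes) sham 2 lay in its place, in 126 it was at or below the highest naive library, and in 0 did it reach the stimulated libraries. Over the 206 genes its median was 0.06 above the naive mean and 0.66 below the mean of the other sham libraries. In the genes that rise from naive through the other 4 sham libraries to stimulated libraries, sham 2 therefore stood near the naive libraries more often than between the groups.

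**Figure D5:**
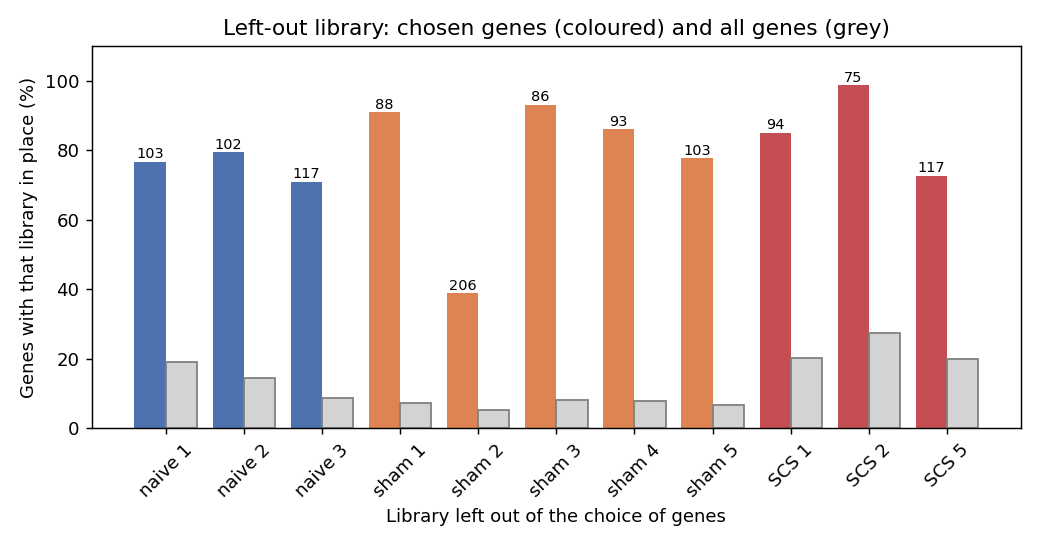
Percentage of genes (vertical) in which a library left out of the choice (horizontal) lay in its group's place, for genes chosen without it (coloured, with their number above the bar) and for all genes with a mean of at least 1 CPM (grey). All libraries but sham 2, at 38.8%, were in place in at least 70.9% of the chosen genes, and in at most 27.5% of all genes. The chosen genes met the rest of the rule and all genes were not held to it, so the bars are not like for like.

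All 80 genes passed the filter on low counts of the edgeR fit, which tested 15758 genes. The counts of calls below use the same contrasts as the choice, so they describe the members and support nothing. For stimulated against naive libraries, 80 of the 80 genes were called higher at an adjusted p under 0.05, where 10.1% of all tested genes were. For stimulated against sham libraries 51 were called higher (3% of all tested genes). For sham against naive libraries 2 were called higher (0.133% of all tested genes), both of which were also called in the other contrasts. Unadjusted edgeR p-values under 0.05 were found for 77 of the 80 in sham against naive libraries and for 79 in stimulated against sham libraries. Among all 15758 tested genes, in either direction, they were found for 1257 and 3174.

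The median log2 fold change of the 80 genes in that fit was 0.70 for sham against naive, 0.94 for stimulated against sham and 1.61 for stimulated against naive libraries. The medians over all tested genes were 0.01, -0.01 and -0.02. The first step of these genes was thus called for only a few of them. DESeq2 called 30 of the 80 in sham against naive libraries, where it called 121 of all tested genes higher. In that contrast edgeR called 11 without sham 2 (54 of all tested genes). Without naive 1, naive 2 or naive 3 it called 1 each (8, 5 and 8 of all tested genes). In stimulated against sham libraries edgeR called 12 of the 80 without SCS 2 (35 of all tested genes). The fit of those 2 groups only called 30 (127 of all tested genes), and DESeq2 called 76 (878 of all tested genes).

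The members called in sham against naive libraries were not those with the largest first step. The SD of the log2 level between their sham libraries was 0.19 and 0.12, against a median of 0.31 over the 80 genes. Close sham libraries were not particular to them, since the lowest SD of any member, 0.11, belonged to a gene that was not called. Why these members were called was not tested. The first of them held 7.99, 6.86 and 7.66 CPM in naive 1 to 3, then 15.4, 12.5, 15.7, 14.9 and 18.4 CPM in sham 1 to 5. In SCS 1, SCS 2 and SCS 5 it held 19.6, 26.3 and 22.8 CPM. Its first gap of 0.62 was the widest of all members, and its second gap was 0.086. The other held 16.4, 17.9 and 18.4 CPM in naive, 30.0, 28.7, 23.8, 27.0 and 27.7 CPM in sham and 41.4, 51.5 and 41.2 CPM in the stimulated libraries. In both genes sham 2 stood with the other sham libraries and not near the naive ones.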

How the data were processed

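The authors deposited raw counts, as whole numbers for each Ensembl gene ID of the rat, from directional poly(A)-selected libraries (1 ug of total RNA each, per the labels' protocols). Build rn6 and the tools HISAT2, featureCounts and DESeq2 are listed in the submitters' processing notes. Versions, annotation, strand setting and filters are stated in no source used here, so counts of overlapping, antisense and near-identical genes are uncertain. Columns were assigned by the sample title in their name; the other 17 columns were left unused, among them 3 spinal cord columns named with the letter S that match no sample analysed here. The gene table has 47357 rows, 0 with an Ensembl ID, so the 37 gene lists (648 symbols), markers and promoter search could not be run. By the rule for that case the IDs printed are the 2 with the largest rise. The members and lists were chosen with earlier results of these data known.

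CPM used column totals. All 11 libraries entered 1 edgeR 4.0.16 quasi-likelihood fit in R 4.3.3 (filterByExpr, TMM, robust, a term per group, two-sided tests, Benjamini-Hochberg adjustment over 15758 genes, threshold 0.05). The standard error was the log2 fold change divided by the square root of F. The p-values measure the spread between these libraries, pooled over the groups. Both scripts were tested on simulated counts. Alternatives covered scaling, pseudocount, thresholds, filter, DESeq2 1.42.0, limma-voom (limma 3.58.1), the replicate block, fits of 2 groups only and each library left out.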

Additional observations from a re-analysis of the deposited data

How the results depend on the processing

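The number of genes that rose stepwise, 80, became 143 with no minimum rise and 11 with a rise of at least 2, both by construction, and stayed between 63 and 118 in 8 other alternatives that kept all libraries, thinning included. With 1 library left out it was 75 (without SCS 2) to 206 (without sham 2). Of the 80 members, those called higher in sham against naive were 30 with DESeq2, 4 in the fit of 2 groups only and 1 to 11 with a library left out. Those called in stimulated against sham (51) were 76 with DESeq2 and 71 with limma-voom. They were 30 in the fit of 2 groups only and 12 to 67 with a library left out. In stimulated against naive all 80 were called in every alternative run except the replicate block, with 62. Over all tested genes, those called higher were 21, 472 and 1584 in these contrasts. DESeq2 gave 121 and 878 in the first and second of these, and the fit of 2 groups gave 27 and 127. With limma-voom the second contrast gave 533. The ranges with a library left out were 5 to 54, 35 to 842 and 895 to 1765. In the first contrast the count moved by over 1.5 times without naive 1 (8), naive 2 (5), naive 3 (8), sham 2 (54) and sham 4 (11). In the second it did so without naive 3 (251), sham 1 (148), sham 2 (212), sham 3 (191), sham 5 (842), SCS 2 (35) and SCS 5 (757), and in the third without naive 2 (895), naive 3 (999) and SCS 2 (949). With the replicate number as a block, the 3 contrasts called 0, 1 and 62 members, and over all genes 8, 4 and 586 were called. Same-numbered libraries had correlations of -0.17 to 0.13 in 8 pairs, and 5 of 10 libraries correlated best with their own number. Whether shared numbers mark a pairing of the samples could not be told from these values. The cause of these differences was not tested. No fold change of a printed gene changed sign in any alternative run.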
